A study of Homo sapiens with 9 samples.

Results

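The chaperone and unfolded protein response genes described here are 37 named genes: heat shock proteins of the cytosol and mitochondria with their cochaperones, subunits of the cytosolic chaperonin, chaperones of the endoplasmic reticulum (ER), and the transcription factors that drive heat shock and ER stress responses. They were chosen by name, and every probe set annotated to exactly 1 of these symbols was taken, which gave 71 of the 54675 probe sets and 32 of the 37 genes. Of these probe sets, 65 passed a filter on dim signals, and all 32 genes were among the 13598 genes tested. The inducible HSP70 genes HSPA1A and HSPA1B are named on shared probe sets, the constitutive HSP70 gene HSPA8 and the chaperonin subunit TCP1 share theirs with small nucleolar RNA genes, and the HSP90 activator AHSA1 was named on no probe set in the annotation used. These 5 genes have no value here, and probe sets that name HSP90B1, DNAJB6 or CHORDC1 along with another gene were not used either.

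Chaperones bind unfolded or partly folded proteins and, through cycles of ATP binding and hydrolysis, help them fold or keep them from aggregating. When unfolded proteins build up in the cytosol, heat shock factor 1 moves onto heat shock elements in the promoters of chaperone genes. In the ER, the sensors IRE1, PERK and ATF6 respond to unfolded proteins by splicing the XBP1 transcript, by raising translation of ATF4 and by cleavage of ATF6 itself, and the resulting factors act on promoters that carry ER stress elements. Carcinoma cells, colorectal ones among them, often hold high levels of these proteins.

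Expression was measured on Affymetrix arrays in cultured human cells of 3 lines, each with 3 arrays labelled as biological replicates. The parent was SW480/EGFP, the SW480 colorectal carcinoma cell line carrying enhanced green fluorescent protein. SCP51 and SCP58 are progenies each grown from a single cell of that line, classed by implantation into mice as high and low in metastatic potential, so every group carries EGFP and each class is represented by 1 clone. All lines were grown in the same serum-containing medium with no stress treatment named, and the comparisons ask which genes differ between the clones and between each clone and the parent.

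Promoters of 4 of the genes are shown because they hold the binding motifs through which chaperone genes are known to be induced, and because these genes stand for the cytosolic and the ER branch in the results. Each runs 5′ to 3′ on the gene's strand, from 250 bases before to 50 bases after the annotated start, from RefSeq on GRCh38.p14. DNAJA1 lies at chr9:33025023-33025322 on the plus strand, CHORDC1 at chr11:90223000-90223299 on the minus strand, HSPA5 at chr9:125241294-125241593 on the minus strand and HYOU1 at chr11:119057156-119057455 on the minus strand. Capitals mark a heat shock element in DNAJA1 and 3 overlapping ones in CHORDC1, an ER stress element in HSPA5, and 2 elements of the second ER stress type in HYOU1.
DNAJA1: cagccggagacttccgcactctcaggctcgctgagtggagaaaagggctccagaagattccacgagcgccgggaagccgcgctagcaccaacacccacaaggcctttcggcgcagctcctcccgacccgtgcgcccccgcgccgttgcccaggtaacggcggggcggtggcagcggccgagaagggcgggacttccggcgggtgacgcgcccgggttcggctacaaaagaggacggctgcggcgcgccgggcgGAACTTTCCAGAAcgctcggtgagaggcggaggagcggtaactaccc
CHORDC1: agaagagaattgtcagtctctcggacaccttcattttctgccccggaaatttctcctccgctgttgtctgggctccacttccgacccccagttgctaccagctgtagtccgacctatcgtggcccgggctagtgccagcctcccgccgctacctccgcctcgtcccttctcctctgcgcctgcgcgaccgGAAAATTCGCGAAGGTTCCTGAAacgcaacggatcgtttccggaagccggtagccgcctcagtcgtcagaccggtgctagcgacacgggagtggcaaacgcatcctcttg
HSPA5: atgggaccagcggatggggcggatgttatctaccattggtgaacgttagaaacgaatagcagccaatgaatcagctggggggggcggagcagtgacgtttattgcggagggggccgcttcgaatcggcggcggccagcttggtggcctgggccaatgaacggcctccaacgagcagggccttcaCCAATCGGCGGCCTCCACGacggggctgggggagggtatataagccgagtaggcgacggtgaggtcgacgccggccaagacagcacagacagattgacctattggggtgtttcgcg
HYOU1: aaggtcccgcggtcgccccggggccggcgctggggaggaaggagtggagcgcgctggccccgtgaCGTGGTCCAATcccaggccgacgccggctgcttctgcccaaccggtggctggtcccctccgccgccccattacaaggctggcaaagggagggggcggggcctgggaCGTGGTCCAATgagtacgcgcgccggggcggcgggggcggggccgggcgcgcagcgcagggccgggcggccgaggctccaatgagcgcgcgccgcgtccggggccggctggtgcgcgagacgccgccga

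The motifs were searched on both strands as exact letters. The heat shock element was read as GAA then 2 free bases then TTC then 2 free bases then GAA, or with TTC outside and GAA inside. The ER stress element was CCAAT followed after 9 free bases by CCACG, and its second type was ATTGG followed after 1 free base by CCACG. The unfolded protein response element was TGACGTGG, and the amino acid response element bound by ATF4 was TTGCATCA.

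Promoters were given for 35 of the 37 genes (50 promoters), with none listed for HSF1 and FKBP4. The heat shock element was present in 7 of the 50 (14.0%), against 0.49% of 35116 promoters of all genes: those of HSPD1, HSP90AA1, HSP90AB1, HSPA8, DNAJA1, DNAJB6 and CHORDC1. The ER stress element was found in 3 (6.0%; HSPA5, HSP90B1 and XBP1), against 0.0769% of all promoters. The second type occurred in HYOU1 alone (2.0%, against 0.0541%), and 1 of its matches overlaps the only unfolded protein response element among the 50 (2.0%, against 0.729%). No promoter of the 50 held the amino acid response element, which 0.866% of all promoters had. Letters in these windows do not show that a factor was bound.

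Array medians lay between 41.1 and 44.3 intensity units. The array of SCP51 replicate 1 stood apart: its trimmed mean was 124 against 141 to 149 on the other 8 arrays, and 11.2% of all genes were more than 1 log2 unit below the mean of SCP51 replicates 2 and 3. Results below are therefore also given without it for many of the values it moves. The epithelial markers EPCAM, KRT8, KRT18 and CDH1 were bright (at least 459 on every array). CDX1, CDX2 and VIL1 passed the filter but were dim, at up to 106, 58.2 and 130. The intestinal markers KRT20 and LGALS4 did not pass it. Markers of fibroblasts, endothelial cells and leukocytes had a highest intensity of 172, for COL1A1.

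In the clone classed as highly metastatic, the cytosolic cochaperones DNAJA1 and CHORDC1 were higher than in the clone classed as poorly metastatic, by 1.45-fold and 1.59-fold. They were the only 2 of the 32 genes called, that is with a limma p adjusted over all 13598 genes under 0.05 (6.25%, against 4.08% of all genes tested, or 1.48% called higher). Of all 555 genes called, 201 were higher and 354 lower in SCP51, or 319 and 302 after quantile normalization. At an unadjusted p under 0.05 there were 7 of the 32 (21.9%, against 21.3% of all genes). The difference was above 0 for 18 of the 32, with a median of 0.02 log2 units against -0.11 over all genes.

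No gene of the 32 was called between SCP51 and the parent, where 2.96% of all genes were called, or between SCP58 and the parent, where 0.14% were. At an unadjusted p under 0.05 there were 5 of the 32 in each (15.6%), against 19.6% of all genes for SCP51 and 8.6% for SCP58. With array weights 1 and 8 were called (9.97% and 9.94% of all genes). Against the parent, SCP58 had 25 of the 32 genes below 0 (78.1%, against 50.1% of all genes), with a median of -0.13 log2 units against -0.00 over all genes. Without SCP58 replicate 1, 10 of the 32 were above 0 in place of 7. The median was then -0.07, against -0.02 over all genes. Without SCP58 replicate 2 or 3 the median of the 32 was -0.12 or -0.16. SCP51 had 20 of 32 below 0 against the parent (62.5%, against 64.0% of all genes), with a median of -0.05 against -0.10. The 3 comparisons share arrays pairwise, so their values are set side by side and not counted as independent.

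**Figure D1:**
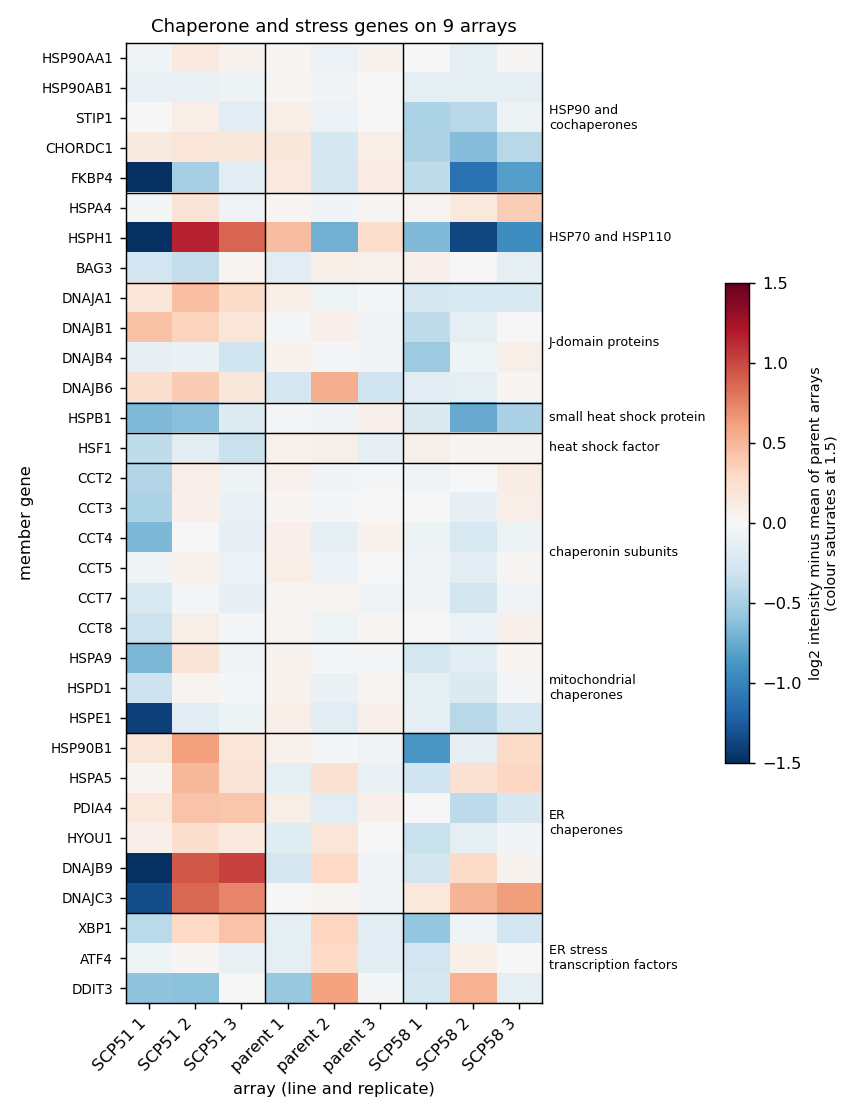
Log2 intensity of each of the 32 genes (rows, by role) on each of the 9 arrays (columns), minus the mean of the parent arrays; red is above and blue below the parent mean, and the colour saturates at 1.5. The first column, SCP51 replicate 1, departs from its 2 fellow arrays most for HSPH1 and DNAJB9, at -2.16 and -2.03 against 0.87 to 1.16 and 0.93 to 1.02. In the same column CCT2, CCT3 and CCT4 lie at -0.44, -0.48 and -0.68, and CCT5 at -0.05.

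HSP90 is the abundant cytosolic chaperone that matures kinases and steroid receptors, and 5 of its 6 genes and cochaperones were measured. CHORDC1, a cochaperone that binds HSP90, had intensities of 1223, 1264 and 1251 in SCP51, 1251, 928 and 1197 in the parent, and 813, 712 and 839 in SCP58. All SCP58 arrays lay below all others, while SCP51 and the parent overlapped. The difference between SCP51 and SCP58 was 0.66 ± 0.13 on the log2 scale (here and below ± SE from the limma fit, n = 3 arrays a line; adjusted p = 0.0346). That between SCP58 and the parent was -0.51 ± 0.13 (adjusted p = 0.301). The first call was lost in 10 of 20 alternatives, 7 of which left out 1 array: SCP51 replicate 2 or 3, parent replicate 1 or 3, or any SCP58 replicate (adjusted p from 0.0507 to 0.136). A dimmer CHORDC1 probe set gave 0.55 ± 0.18 (adjusted p = 0.141 over all probe sets).

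The inducible HSP90AA1 and the constitutive HSP90AB1 encode the HSP90 proteins themselves. HSP90AB1 read 7033, 6996 and 7191 in SCP51, 7723, 7400.3 and 7641 in the parent, and 6869, 6889.8 and 6913 in SCP58. The 3 lines did not overlap, yet the widest gap, between the parent and SCP58, was 1.10-fold (-0.14 ± 0.04 log2 units, adjusted p = 0.312). On the dimmer HSP90AB1 probe sets the clones overlapped, and SCP51 minus SCP58 ran from -0.42 to 0.04 over all 3 probe sets. HSP90AA1 had differences of 0.10, 0.05 and -0.04 log2 units for SCP51 minus SCP58, SCP51 minus parent and SCP58 minus parent, and overlapping arrays in all 3.

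FKBP4 is an immunophilin that links HSP90 to steroid receptors. Its arrays read 483, 1023 and 1279 in SCP51, 1593, 1197 and 1563 in the parent, and 1105, 662 and 813 in SCP58. SCP51 minus SCP58 was 0.03 log2 units with all arrays and 0.44 ± 0.22 without SCP51 replicate 1 (adjusted p = 0.249). Every SCP58 array was below every parent array, at -0.78 ± 0.35 log2 units (adjusted p = 0.597). A dimmer FKBP4 probe set gave -1.02 ± 0.18 for the same comparison (adjusted p = 0.11 over all probe sets). That probe set read 448, 366 and 456 in SCP51 and 334, 242 and 278 in SCP58, without overlap. Over the 4 FKBP4 probe sets SCP51 minus SCP58 ran from 0.03 to 0.58, highest on that one, and none was called. STIP1, which joins HSP70 to HSP90, had -0.32 ± 0.12 in SCP58 minus parent (adjusted p = 0.508). All 5 genes of the HSP90 group were below 0 in SCP58 minus parent, with a median of -0.32.

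J-domain proteins stimulate the ATPase of HSP70 and deliver substrates to it. DNAJA1, a cytosolic one, had intensities of 3493, 4191 and 3722 in SCP51, 3283, 2945 and 2999.7 in the parent, and 2579, 2630.1 and 2624 in SCP58. The lines were ordered SCP51, parent, SCP58 with no overlap between any pair. SCP51 exceeded SCP58 by 0.54 ± 0.08 log2 units (limma adjusted p = 0.013), with means ± SD of 3802 ± 356 and 2611 ± 28.0 (n = 3 each). The steps from the parent were 0.30 to SCP51 (adjusted p = 0.101) and -0.23 to SCP58 (adjusted p = 0.466), neither of them called.

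The DNAJA1 call held in 15 of 20 alternatives. It was lost when its probe sets were averaged, with only the 6 arrays compared, with the replicate number blocked, and without SCP58 replicate 2 or 3, at adjusted p from 0.0518 to 0.0606. Its second probe set gave 0.51 ± 0.16 log2 units (adjusted p = 0.138 over all probe sets). There the clones did not overlap, but the parent (1323 to 1828) overlapped both SCP51 (1598 to 2218) and SCP58 (1179 to 1476).

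DNAJB1, the heat-inducible HSP40, was chosen for description after its values were seen. It read 1943, 1814 and 1632 in SCP51, 1404, 1507 and 1391 in the parent, and 1098, 1301 and 1426 in SCP58. All SCP51 arrays were above all others. The difference from SCP58 was 0.50 ± 0.12 log2 units, just outside the threshold (limma adjusted p = 0.0562), and it was called in 5 of 20 alternatives. A second DNAJB1 probe set gave 0.58 ± 0.10, which was called when each probe set was tested by itself (adjusted p = 0.0249; 3.35% of probe sets were called).

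DNAJB6 and DNAJB4 complete the group. DNAJB6, which keeps aggregation-prone proteins soluble, did not overlap between SCP51 (282 to 328) and SCP58 (226 to 257), at 0.35 ± 0.22 log2 units (adjusted p = 0.397), but the parent spanned 205 to 368. DNAJB4 differed by -0.00 ± 0.17 between the clones. In SCP58 minus parent all 4 J-domain genes were below 0, from -0.23 to -0.09.

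**Figure D2:**
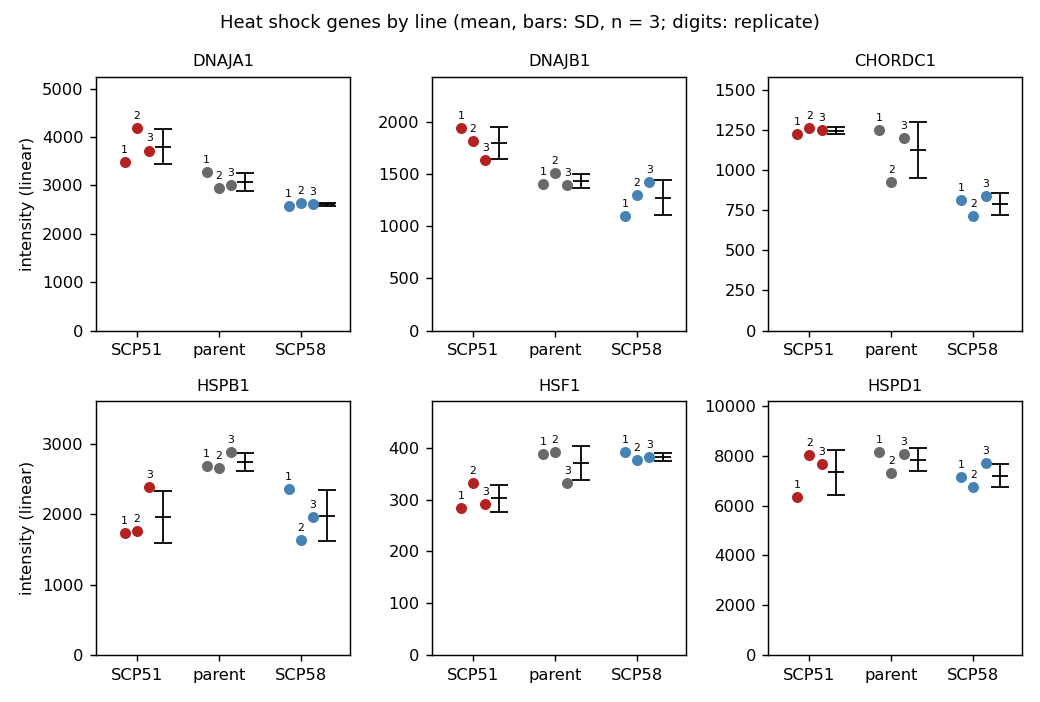
Intensity (linear axis from 0) of 6 genes by line; points are arrays numbered by replicate, and the bar beside them is the mean with SD (n = 3). DNAJA1 is ordered SCP51, parent, SCP58 without overlap, CHORDC1 reads 712 to 839 in SCP58 against 928 to 1264 elsewhere, the parent points of HSPB1 lie above those of both clones, and the SCP51 points of HSF1 lie below the others.

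HSP70 is the general ATP-driven chaperone, and its nucleotide exchange partners include the HSP110 proteins and BAG3. Of 6 genes 3 were measured. HSPA4, an HSP110-type exchange factor, read 1857, 2149.8 and 1814 in SCP51, 1915, 1825 and 1896 in the parent, and 1926, 2095 and 2418 in SCP58. Only SCP58 and the parent did not overlap, at 0.19 ± 0.11 log2 units (adjusted p = 0.759). Over the 4 HSPA4 probe sets this difference ran from -0.51 to 0.19, with 2 above and 2 below 0. BAG3, which links HSP70 to selective autophagy, ranged from 1013 to 1328 in SCP51, 1157 to 1378 in the parent and 1175 to 1362 in SCP58, so that all groups overlapped.

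HSPH1, the stress-inducible HSP110, was the most variable of the 32 within SCP51 (SD 1.84 log2 units). It read 181, 1795 and 1477 in SCP51, 1111, 488 and 966 in the parent, and 509, 312 and 422 in SCP58. Replicate 1 of SCP51 was the lowest of all arrays, and the other 2 were the highest. The difference between SCP51 and SCP58 was 0.95 ± 0.78 log2 units with all arrays (adjusted p = 0.522) and 2.0 ± 0.34 without SCP51 replicate 1 (adjusted p = 0.0095). On a second HSPH1 probe set SCP51 replicate 1 was also far below its fellow arrays, but above 2 SCP58 arrays, with 115, 593 and 467 in SCP51, 306, 151 and 257 in the parent, and 69.7, 87.9 and 119 in SCP58.

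HSPB1 is a small heat shock protein that holds unfolded proteins without using ATP. Its intensities were 1739, 1771 and 2391 in SCP51, 2686, 2660.5 and 2888 in the parent, and 2357, 1630.1 and 1959.9 in SCP58. All 3 parent arrays lay above all 6 clone arrays. The differences were -0.50 ± 0.16 log2 units for SCP51 (adjusted p = 0.149) and -0.48 ± 0.16 for SCP58 (adjusted p = 0.42), so neither was called, and the clones differed from each other by -0.01.

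HSF1 encodes the main heat shock transcription factor. It read 284, 332 and 293 in SCP51, 388, 392 and 333 in the parent, and 392, 376 and 382 in SCP58. The SCP51 arrays were below all others, although SCP51 replicate 2 was within 1 unit of parent replicate 3. The differences were -0.34 ± 0.12 log2 units from SCP58 (adjusted p = 0.149) and -0.29 ± 0.12 from the parent (adjusted p = 0.228). A second, dimmer HSF1 probe set gave 0.01 and -0.00 for these, with overlapping arrays.

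The cytosolic chaperonin is a double ring that folds actin and tubulin. Its 6 measured subunits of 7 listed (CCT2, CCT3, CCT4, CCT5, CCT7 and CCT8) had SCP51 minus SCP58 differences from -0.16 to 0.04 log2 units and overlapping arrays for each subunit. CCT4 read 2587, 4156 and 3801 in SCP51, 4359, 3779.5 and 4287 in the parent, and 3927, 3528 and 3919.5 in SCP58. CCT7 read 2606, 3027 and 2807 in SCP51, 3084, 3144 and 2932 in the parent, and 2943, 2526 and 2945 in SCP58. In SCP51 minus parent all 6 were below 0 (-0.26 to -0.03); without SCP51 replicate 1 they ran from -0.07 to 0.03.

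Of the mitochondrial chaperones, HSPD1 and HSPE1 encode the HSP60 and HSP10 of the folding chamber, and HSPA9 the HSP70 that pulls proteins into the matrix. HSPE1 read 1559.5, 3669 and 3891 in SCP51, 4399.8, 3657 and 4328 in the parent, and 3719, 3082 and 3421 in SCP58. Apart from the first SCP51 array, the SCP51 values lay within the range of the parent. Its difference from the parent was -0.55 ± 0.31 log2 units with all arrays (adjusted p = 0.349) and -0.12 ± 0.10 without that array (adjusted p = 0.509). For SCP51 minus SCP58 these differences were -0.27 and 0.15. HSPD1 read 6329, 8047 and 7659 in SCP51, 8151, 7308 and 8082 in the parent, and 7143, 6764 and 7704 in SCP58, with all groups overlapping. HSPA9 also overlapped throughout, with 1834, 3341 and 2822 in SCP51, 3027, 2874 and 2860 in the parent, and 2429, 2586 and 2973 in SCP58.

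In the ER, 6 chaperones and cochaperones were measured, and none was called with all arrays. PDIA4 is an ER disulfide isomerase. Its brightest probe set read 555, 668 and 662 in SCP51, 529, 445 and 524 in the parent, and 495, 379 and 419.9 in SCP58. All SCP51 arrays were above all others, by 0.55 ± 0.15 log2 units over SCP58 (adjusted p = 0.0785) and 0.33 ± 0.15 over the parent (adjusted p = 0.259). A second PDIA4 probe set gave 0.19 for SCP51 minus SCP58 and -0.23 for SCP51 minus parent, with overlapping arrays in both. HYOU1, the large HSP70-like chaperone whose promoter is shown above, read 1348, 1524 and 1420.1 in SCP51, 1129, 1455 and 1273 in the parent, and 1018, 1163 and 1242 in SCP58. The clones did not overlap, at 0.33 ± 0.13 (adjusted p = 0.181).

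HSPA5 encodes BiP, the ER HSP70 that holds the stress sensors inactive, and HSP90B1 the ER HSP90. HSPA5 read 3352, 4603 and 3747 in SCP51, 2991, 3839 and 3066 in the parent, and 2670.3, 3816 and 4052 in SCP58, so that all groups overlapped. SCP51 differed from SCP58 by 0.16 ± 0.18 log2 units (adjusted p = 0.65). A second, dimmer HSPA5 probe set read 210, 235 and 232 in SCP51, 169, 220 and 167 in the parent, and 148, 200 and 162 in SCP58. On it the clones did not overlap, at 0.42 log2 units, but the difference was not called. HSP90B1 read 1596, 2144 and 1596 in SCP51, 1474, 1383 and 1357 in the parent, and 766, 1289.9 and 1706 in SCP58. Its SCP51 arrays were above the parent arrays, while SCP58 spread across both, and the difference between the clones was 0.57 ± 0.26 (adjusted p = 0.261). A second HSP90B1 probe set read 627, 1404 and 1147 in SCP51, 1140, 1114 and 1043 in the parent, and 779, 904 and 767 in SCP58. On it SCP51 overlapped both other lines. SCP51 minus parent was -0.13 log2 units there, against 0.33 on the first, and SCP51 minus SCP58 was 0.30.

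DNAJB9 and DNAJC3 are ER J-domain proteins, the first a binder of IRE1 and the second an inhibitor of PERK. The brightest DNAJB9 probe set read 133, 1038 and 1106 in SCP51, 459.7, 669 and 527 in the parent, and 449, 665 and 568 in SCP58. SCP51 replicate 1 was the lowest of the 9 arrays, and the other 2 SCP51 arrays were the highest. The difference between the clones was -0.05 ± 0.71 log2 units with all arrays and 0.95 ± 0.20 without that array (adjusted p = 0.0225).

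The other 2 DNAJB9 probe sets differed on that array. One showed the drop as well, with 63.6 against 161 and 161 on SCP51 replicates 2 and 3 (2.53-fold lower). The other did not, and read 256, 311 and 298 in SCP51, 138, 194 and 167 in the parent, and 146, 188 and 172 in SCP58. All 3 SCP51 arrays were above all others, at 0.78 ± 0.17 log2 units over SCP58 (adjusted p = 0.0461 when each probe set was tested by itself) and 0.80 ± 0.17 over the parent (adjusted p = 0.0545). DNAJC3, chosen after its values were seen, read 168, 769 and 704 in SCP51, 424, 436 and 410.1 in the parent, and 474, 600.5 and 653 in SCP58. Without SCP51 replicate 1 its difference from the parent was 0.80 ± 0.15 (adjusted p = 0.0197), against 0.09 ± 0.50 with all arrays.

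**Figure D3:**
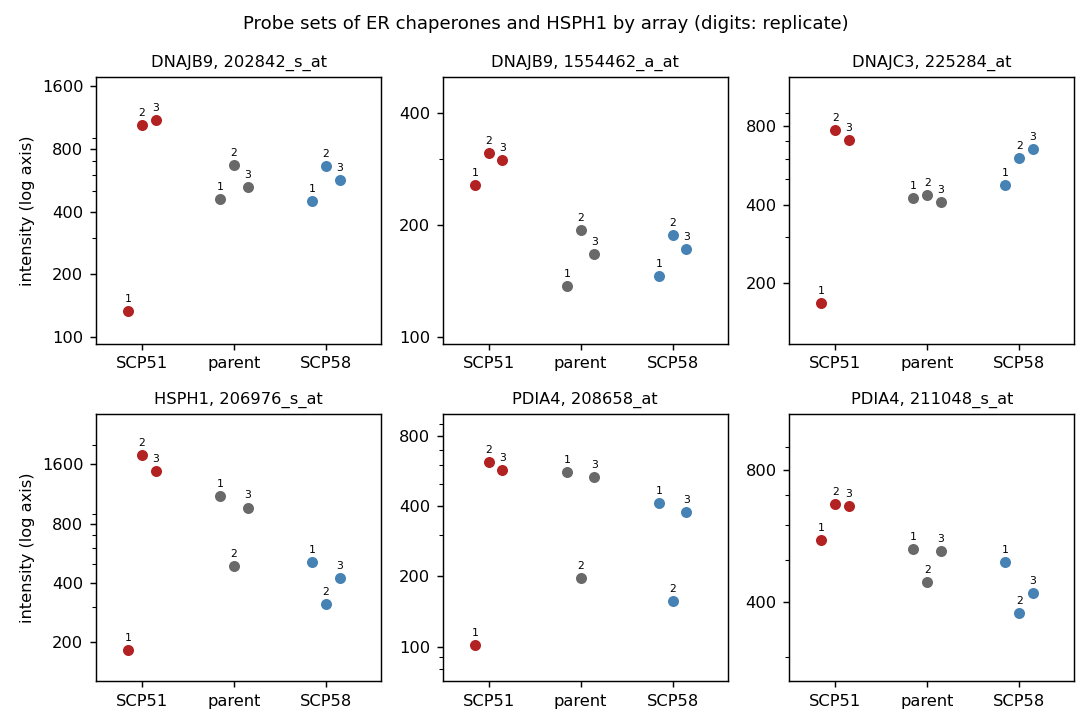
Intensity on a log axis of 6 probe sets of DNAJB9, DNAJC3, HSPH1 and PDIA4 by line, with points numbered by replicate. SCP51 replicate 1 is far below its fellow arrays on one probe set of DNAJB9 (133 against 1038 and 1106) and of PDIA4 (102 against 618 and 574), but nearer to them on the second probe set drawn for each gene (256 against 311 and 298; 555 against 668 and 662). The DNAJB9 probe set that is not drawn read 63.6 on that array.

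On the array of SCP51 replicate 1, 12 of the 65 probe sets were more than 1 log2 unit below the mean of SCP51 replicates 2 and 3. The deepest were HSPH1 (9.0-fold lower), DNAJB9 (8.05-fold) and a PDIA4 probe set (5.85-fold), while the brightest PDIA4 probe set read 555 there against 668 and 662. By gene, 5 of the 32 were that far below (15.6%, against 11.2% of all genes). Whether labelling or RNA quality played a part in this array was not tested.

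Without SCP51 replicate 1, 5 of the 32 genes were higher in SCP51 than in SCP58 (15.6%, against 8.85% of 13428 genes called): DNAJA1, CHORDC1, HSPH1, DNAJB9 and PDIA4. PDIA4 then had 0.63 ± 0.15 log2 units (limma adjusted p = 0.0326). The difference was above 0 for 25 of 32, with a median of 0.15. Against the parent, 3 were higher (5.39% of all genes were called): DNAJA1 by 0.36 ± 0.08 (adjusted p = 0.029), DNAJB9 by 0.97 ± 0.20 (adjusted p = 0.0273) and DNAJC3. Between SCP58 and the parent 0 were called (0.559% of all genes were). In this fit the SCP51 mean rests on 2 arrays.

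**Figure D4:**
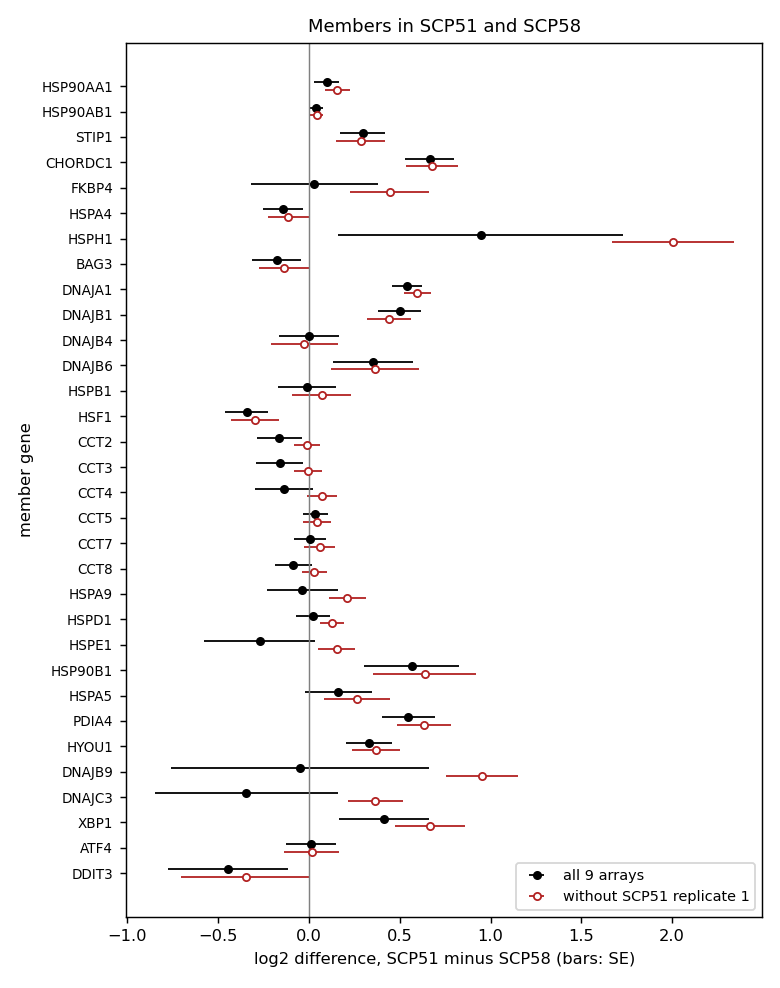
Log2 difference of SCP51 minus SCP58 for each of the 32 genes (bars: SE), with all 9 arrays (filled) and without SCP51 replicate 1 (open). HSPH1, DNAJB9 and DNAJC3 move most between the 2 fits (0.95 to 2.0, -0.05 to 0.95 and -0.34 to 0.37), while DNAJA1 goes from 0.54 to 0.60 and CHORDC1 from 0.66 to 0.68.

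The stress transcription factors showed no called difference. XBP1, whose transcript IRE1 splices, read 671, 1087 and 1191 in SCP51, 799, 1103 and 785 in the parent, and 592, 856 and 725 in SCP58. Its difference between the clones was 0.41 ± 0.25 log2 units (adjusted p = 0.382), or 0.67 ± 0.19 without SCP51 replicate 1 (adjusted p = 0.0654). These values do not separate spliced from unspliced transcript. ATF4, which is controlled largely by translation, read 3649, 3841 and 3509.9 in SCP51, 3453, 4674 and 3417 in the parent, and 3125, 4045 and 3793 in SCP58, with all groups overlapping. DDIT3, the factor CHOP that acts downstream of ATF4, read 278, 276 and 418 in SCP51, 283, 640.02 and 414 in the parent, and 353, 603 and 380.4 in SCP58, also with overlap throughout and -0.44 ± 0.33 between the clones (adjusted p = 0.475).

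The groups were also compared by whether their arrays overlapped. Between SCP51 and SCP58, 8 of the 32 genes had no overlap (25%, against 25.1% of all genes). Of these, 7 were higher in SCP51 (21.9%, against 7.91% of all genes): DNAJA1, CHORDC1, DNAJB1, DNAJB6, PDIA4, HYOU1 and HSP90AB1. HSF1 was lower. Overlap was judged only without further scaling, and the split of all calls by direction moved with scaling, as given above. Between SCP51 and the parent 8 did not overlap (25%, against 28.1%), and between SCP58 and the parent 7 (21.9%, against 17.0%).

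Of 91 other chaperone and stress genes listed by role, 84 were tested, and 2, 2 and 0 were called for SCP51 minus SCP58, SCP51 minus parent and SCP58 minus parent (2.38%, 2.38% and 0%, against 4.08%, 2.96% and 0.14% of all genes). Without SCP51 replicate 1 these counts were 9, 4 and 0 (10.7%, 4.76% and 0%, against 8.85%, 5.39% and 0.559%). None of the 27 tested cytosolic chaperones and cochaperones was called with all arrays; 6, 3 and 2 had an unadjusted p under 0.05 (22.2%, 11.1% and 7.41%, against 21.3%, 19.6% and 8.6% of all genes). Without SCP51 replicate 1, the cyclophilin PPID (0.36 ± 0.08 log2 units, adjusted p = 0.029) and the J-domain gene DNAJA4 (0.70 ± 0.18, adjusted p = 0.0467) were higher in SCP51 than in SCP58. Among 23 ER folding and degradation genes CANX, the lectin chaperone calnexin, was the only one called with all arrays. CANX read 3982, 4938 and 3974 in SCP51, 2441, 2577 and 2512 in the parent, and 3512, 3633 and 4494 in SCP58. Both clones were above the parent on every array, by 0.77 ± 0.12 log2 units for SCP51 (limma adjusted p = 0.0126) and 0.62 ± 0.12 for SCP58 (adjusted p = 0.12). The SCP51 call was lost without any 1 parent array (adjusted p from 0.0526 to 0.0638) and when its probe sets were averaged.

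Of 22 ER stress sensors and targets of ATF4 or CHOP, 15 were below 0 in SCP51 minus parent (68.2%, against 64.0% of all genes), with a median of -0.20 against -0.10, and 16 in SCP58 minus parent (72.7%, against 50.1%). PSAT1, a serine synthesis enzyme induced by ATF4, read 1563, 1699 and 1654 in SCP51, 2479.7, 2691 and 2399 in the parent, and 1923, 2020.4 and 2233 in SCP58. The 3 lines did not overlap, and SCP51 was lower than the parent, with a difference of -0.62 ± 0.09 log2 units (limma adjusted p = 0.0103, held in 19 of 20 alternatives). Asparagine synthetase, ASNS, and the ATF4 target TRIB3, chosen after their values were seen, were likewise lowest on the SCP51 arrays. ASNS read 1615, 1171 and 1509 there against 2067 to 3575 elsewhere (-0.93 ± 0.20 from the parent, adjusted p = 0.0519). With SCP51 replicate 1 left out, ASNS was called lower than in the parent (-1.02 ± 0.21, adjusted p = 0.0278) and than in SCP58 (-0.89 ± 0.21, adjusted p = 0.0329), and the stress sensor CREB3L2 was called higher than in the parent (0.69 ± 0.17, adjusted p = 0.0485). TRIB3 read 1067, 1111 and 1036 against 1216 to 2276 elsewhere (-0.67 ± 0.20, adjusted p = 0.128).

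STC2, a secreted glycoprotein induced through PERK, was higher in SCP51 than in SCP58. It read 534, 875 and 792 in SCP51, 354, 795 and 337 in the parent, and 272, 246 and 261 in SCP58. The clones did not overlap, at 1.47 ± 0.33 log2 units (limma adjusted p = 0.0461), a call kept in 9 of 20 alternatives and lost without any 1 SCP58 array (0.0948 to 0.158). SCP51 and the parent overlapped, at 0.66 log2 units (limma adjusted p = 0.305), which was not called. Among 12 other mitochondrial chaperones and proteases, the J-domain gene DNAJA3 was called. It read 1419, 1610.3 and 1517 in SCP51, 1342, 1269 and 1308 in the parent, and 1178, 1102 and 1165 in SCP58, a step of 0.40 ± 0.09 between the clones (adjusted p = 0.0462) with no overlap between any lines. That call was kept in 6 of 20 alternatives. In the fit without SCP51 replicate 1, GRPEL1 (0.48 ± 0.08, adjusted p = 0.0113) was also higher and CLPX (-0.73 ± 0.18, adjusted p = 0.0421) lower in SCP51 than in SCP58.

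**Figure D5:**
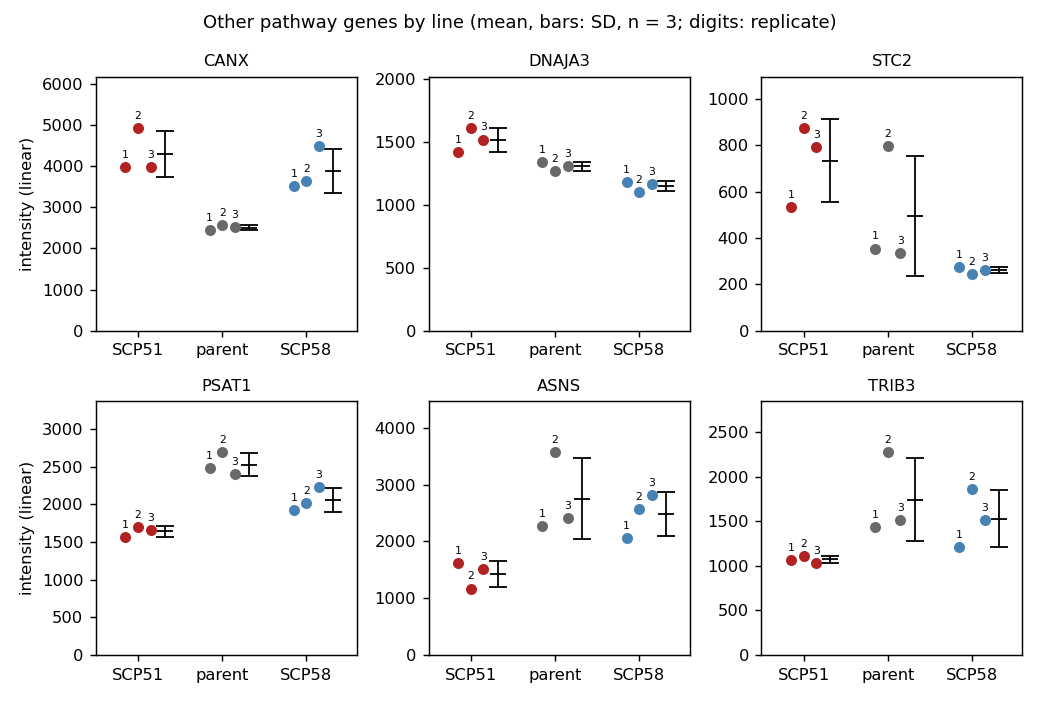
Intensity (linear axis from 0) of 6 further stress genes by line; points are arrays numbered by replicate, and the bar beside them is the mean with SD (n = 3). CANX is above the parent in both clones, PSAT1, ASNS and TRIB3 are lowest in SCP51, and STC2 and DNAJA3 are higher in SCP51 than in SCP58.

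Several of the 32 genes have more than 1 probe set that passed the filter, and these did not always point the same way. Of 21 such genes, the signs differed for 9 in SCP51 minus SCP58, 6 in SCP51 minus parent and 4 in SCP58 minus parent. Within groups, the SD of a gene on the log2 scale had a median over the 32 of 0.19 in SCP51, 0.088 in the parent and 0.15 in SCP58, against 0.21, 0.13 and 0.17 over all genes.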

How the data were processed

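Total RNA from the 9 cultures was labelled with biotin, per the labels' protocols. The deposited values are intensities on a linear scale that the authors made with GCOS 1.4, as the submitters' processing notes say. Its scaling target and probe summary method were not given in the sources used here, so levels are in arbitrary units.

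Intensities below 1 (514 values) were set to 1, log2 was taken, and no further scaling was applied. Control probe sets (62) were left out. Probe sets above their array's median on at least 3 of 9 arrays were kept (29166), and a gene was its brightest probe set with 1 symbol. Of the probe sets, 41091 carried 1 symbol, 1801 several and 11721 none; symbols were updated through Entrez identifiers in a RefSeq GRCh38.p14 table (99.9% matched), which also gave the promoters. The labels name no genome build for the arrays.

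Differences were fitted with limma 3.58.1 in R 4.3.3 on all 9 arrays, with 1 mean per group and variances that follow intensity. Every adjusted p is two-sided and adjusted by Benjamini-Hochberg. It comes from this fit, over every gene tested, unless an alternative or a left-out array is named. Values for single probe sets come from a fit adjusted over all 29166 probe sets kept. The script was tested on simulated data. The number of arrays limits the precision, and p-values reflect only the spread among these 9 arrays, since the labels do not describe the cultures further.

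The members, lists and tests were chosen with earlier results of these data known. Array values are given for called members, for up to 2 members with the smallest p of a role without a call, and for members whose probe sets differed in sign with 1 called; others named are said to be chosen after their values were seen or are given to account for all members. Alternatives changed the filter, scaling, offset, variance trend, array weights, probe set summary, arrays fitted, replicate block and each array left out. Figures used matplotlib 3.10.9.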

Additional observations from a re-analysis of the deposited data

How the results depend on the processing

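The count of the 32 genes called between SCP51 and SCP58, 2 with the settings used, was 5 with array weights (11.2% of all genes were called), 1 when probe sets of a gene were averaged (2.97%), 4 with every probe set tested by itself (3.35% called) and 0 in fits to the 6 arrays compared (0.985%). Leaving out 1 array at a time gave 0 to 5, with 0 without SCP58 replicate 2 and 5 without SCP51 replicate 1 (1.02% and 8.85% of all genes). For SCP51 and the parent, where none was called, quantile normalization gave 1 (3.05% of all genes), array weights 1 (9.97%) and leaving out 1 array 0 to 3, the 3 without SCP51 replicate 1 (5.39%). For SCP58 and the parent, array weights gave 8, all lower in SCP58 (9.94% of all genes were called), and leaving out 1 array 0. The 8 were CHORDC1, DNAJA1, FKBP4, HSP90AB1, HSPB1, HSPH1, PDIA4 and STIP1. The causes were not tested.

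With the replicate number as a block, 0 of the 32 genes were called in each comparison, and over all genes 210, 167 and 6 in place of 555, 402 and 19. Over all genes, deviations of same-numbered arrays correlated from -0.22 to 0.133, and those of different-numbered arrays from -0.125 to 0.121. The highest value, 0.133, was that of parent replicate 2 with SCP58 replicate 2. A pairing that affects only some genes was not tested.

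Over all alternatives the counts of all genes called ran from 134 to 1527, 122 to 1356 and 0 to 1351. Centring on the 75th percentile split the calls of SCP51 against SCP58 into 309 higher and 297 lower, and those of SCP51 against the parent into 248 and 183 in place of 187 and 215. It put the median of the 32 genes in SCP51 minus parent at 0.01, where it was -0.05. Of 2160 single-gene values under the alternatives, 45 lost a call and 29 gained one. Of the values called with the settings used 0 changed sign, while uncalled ones did, such as DNAJB9 and DNAJC3 without SCP51 replicate 1. Probe sets near the array median, such as the dimmer CHORDC1 one, have little signal over background, which limits what they can show.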

Other observations

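Replicate 2 of the parent and of SCP58 had high values for DDIT3 (640.02 and 603, against 276 to 418 on the other 7 arrays) and for TRIB3 (2276 and 1859.8, against 1036 to 1512). The same arrays had low values for the second PDIA4 probe set within their lines (196 against 559 and 532 in the parent; 157 against 414 and 378 in SCP58) and for HSPH1 (488 against 1111 and 966; 312 against 509 and 422). These genes were picked after their values were seen, and no test was made of the pattern.

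SCP58 replicate 1 was the lowest of the 9 arrays for 10 of the 32 genes (31.2%, against 7.06% of all genes), among them HSP90B1 at 766 and XBP1 at 592. SCP51 replicate 1 was the lowest for 12 (37.5%, against 32% of all genes).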
